A study of Mus musculus with 2 samples.

Results

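Small groups of TOBF1 peaks in mouse embryonic stem (ES) cells are described here. A group was a run of 3 to 5 peaks on chromosomes 1 to 19 in which each peak lay at most 10 kb from the next, counted from the end of one peak to the start of the next. This rule gave 269 groups with 921 of the 11545 peaks on these chromosomes (7.98%). The whole list held 12181 peaks. The other peaks of chromosomes 1 to 19 were 7980 single peaks, 1020 pairs and 63 longer chains of 6 or more. The groups were selected on the positions and number of their peaks, both measured in this library, so their density is no finding, and scores are given as a description. With 1 ChIP library and no replicate, no value has a replicate error and no test was made.

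The ChIP library came from R1/E mouse ES cells that carry a tagged copy of TOBF1, the product of A830080D01Rik, on a BAC, a long genomic clone. Chromatin was crosslinked with DSG and formaldehyde, and an anti-GFP antibody pulled down the tagged protein. The input came from cells of the same line with the same construct, without antibody, and no file of it was used here. Both were grown in serum-containing medium with LIF, a cytokine that supports self-renewal. The BAC gives the tagged protein beside the cell's own, and no untagged cells were analysed here. Each peak carries the authors' own score, taken as a −log10 q-value, with a minimum of 1.304 over the list.

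In ES cells, transcription factors such as Oct4, Sox2, Esrrb and the Klf proteins bind many of the same places. Where several bound elements follow each other over some kilobases, the stretch is called an enhancer cluster, and such clusters are known next to genes of the pluripotency network. Binding of one protein does not define an enhancer. No histone mark, coactivator or expression value was used here, so the groups are called peak groups and not enhancers.

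A few sequences show what lay under peaks of these groups at gene starts. Of the 269 groups, 36 had an annotated start site inside their span. A peak lay over a promoter window, the 250 bases before to 50 bases after a start, in 17 groups. Any overlap of peak and window was counted, however short. These windows belonged to 21 of the 27025 genes with such a window, 15 protein-coding and 6 of long non-coding RNAs (lncRNAs). Replication-dependent histone genes made up 9 of the 21, and their share of all windows was not computed. The first window below is the one of the pluripotency and signalling genes with a peak over it, among those with a window. Klf5, Sall4, Dppa2, Dppa4 and Dppa5a had a group within 10 kb but no window in the reference used. Peaks over their starts could thus not be counted. Those of 2 lncRNA genes named pluripotency-associated transcripts (Platr), of Arrdc3, which encodes an arrestin-domain protein, and of the ribosomal protein gene Rps9 were picked after their values were seen. Windows are from RefSeq (GRCm38.p6, whose chromosome positions are those of mm10), written 5′ to 3′ along the gene, with the bases inside the TOBF1 peak in capitals.
Otx2 (chr14:48662685-48662984, minus strand): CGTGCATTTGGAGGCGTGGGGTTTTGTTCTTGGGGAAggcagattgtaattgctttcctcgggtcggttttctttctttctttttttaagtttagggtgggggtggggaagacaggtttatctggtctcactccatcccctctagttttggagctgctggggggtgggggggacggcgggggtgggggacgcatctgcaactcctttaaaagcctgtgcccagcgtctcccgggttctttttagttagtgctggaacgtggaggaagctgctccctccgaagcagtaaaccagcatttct
Platr22 (chr1:136695961-136696260, plus strand): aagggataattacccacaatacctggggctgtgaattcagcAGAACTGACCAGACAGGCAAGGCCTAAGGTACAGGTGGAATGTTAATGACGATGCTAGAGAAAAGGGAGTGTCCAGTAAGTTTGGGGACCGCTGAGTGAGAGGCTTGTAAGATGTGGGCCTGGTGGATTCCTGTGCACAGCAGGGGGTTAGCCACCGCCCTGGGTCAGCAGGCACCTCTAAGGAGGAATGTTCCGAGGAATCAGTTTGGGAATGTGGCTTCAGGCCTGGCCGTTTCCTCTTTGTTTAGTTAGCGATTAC
Platr9 (chr4:34911432-34911731, minus strand): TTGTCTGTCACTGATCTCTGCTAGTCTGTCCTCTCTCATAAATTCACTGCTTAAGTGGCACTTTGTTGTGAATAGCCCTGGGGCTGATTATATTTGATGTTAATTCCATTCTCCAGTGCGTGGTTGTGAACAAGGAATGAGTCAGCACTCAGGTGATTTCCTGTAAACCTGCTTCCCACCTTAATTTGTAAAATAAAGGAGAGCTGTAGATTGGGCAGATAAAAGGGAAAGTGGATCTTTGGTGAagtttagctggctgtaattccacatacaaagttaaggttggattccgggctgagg
Arrdc3 (chr13:80883172-80883471, plus strand): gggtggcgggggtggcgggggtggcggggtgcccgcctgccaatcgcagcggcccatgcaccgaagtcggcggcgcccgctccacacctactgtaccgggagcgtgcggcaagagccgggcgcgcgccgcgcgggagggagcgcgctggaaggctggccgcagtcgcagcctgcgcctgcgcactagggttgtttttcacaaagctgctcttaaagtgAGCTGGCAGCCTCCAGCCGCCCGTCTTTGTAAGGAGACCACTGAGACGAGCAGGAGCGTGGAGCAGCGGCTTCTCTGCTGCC
Rps9 (chr7:3703791-3704090, plus strand): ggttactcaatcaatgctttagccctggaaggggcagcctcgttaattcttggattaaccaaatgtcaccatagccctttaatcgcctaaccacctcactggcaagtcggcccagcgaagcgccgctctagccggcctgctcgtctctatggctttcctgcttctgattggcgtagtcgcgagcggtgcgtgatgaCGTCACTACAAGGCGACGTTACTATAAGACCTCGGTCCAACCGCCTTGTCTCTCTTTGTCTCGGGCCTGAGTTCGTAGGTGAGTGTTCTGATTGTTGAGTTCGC

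The peak reached 37 bases into the Otx2 window, from its upstream side, and had a score of 78.7. It covered 259 bases of the Platr22 window (score 10.9), 245 bases at Platr9 (4.96), 82 at Arrdc3 (5.92) and 104 at Rps9 (3.59). The Otx2 peak thus had the highest score of these and the smallest cover of its window. The share of G and C was 70.0% at Arrdc3, 53.7% at Otx2 and at Rps9, 52.0% at Platr22 and 42.7% at Platr9, against a median of 52.7% over 32815 windows. Of 4 motifs searched on both strands, none was in these 5 windows. They were ATGCAAAT (POU factors such as Oct4), CATTGTT (SOX), AAGGTCA (ESRRB) and CCACACCC (KLF), found in 1.74%, 3.78%, 4.72% and 3.56% of all windows. Each motif was searched in the whole window, including bases outside the peak. Among the 24 windows overlapped by peaks of groups, ATGCAAAT was in that of the histone gene H2ac12 and AAGGTCA in that of Rnf225. CATTGTT and CCACACCC were in the 3 overlapping windows of the lncRNA gene Gm33738.

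The groups were mostly short, and many of them were led by 1 peak. There were 183 groups of 3 peaks (68.0%), 58 of 4 (21.6%) and 28 of 5 (10.4%). Their spans ran from 0.903 to 28.2 kb with a median of 6.85 kb (quartiles 3.71 and 11.02 kb). The summed score ran from 8.29 to 186 with a median of 37.8 (quartiles 25.2 and 60.8), against a median of 24.4 for pairs and 65.3 for chains of 6 or more. The highest peak held a median of 51.5% of its group's summed score and over 50% of it in 144 of 269 groups. This median share was 54.2% in groups of 3, 43.7% in groups of 4 and 37.7% in groups of 5. Peaks covered a median of 12.3% of the span. In groups of 3 the highest peak was the first or last in 111 of 183 cases, in groups of 4 in 28 of 58 and in groups of 5 in 7 of 28. The outer places are a smaller part of all places in larger groups. Shares expected from place alone were not computed, so the fall is not read as a change of shape.

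Median span was 6.47 kb in groups of 3, 9.40 kb in groups of 4 and 9.19 kb in groups of 5, and the median summed score was 36.1, 38.4 and 49.7 in that order. The mean score per peak had medians of 12.03, 9.59 and 9.94, so larger groups did not have higher scores per peak. In 54 groups (20.1%) every peak was under 10.03, the median over chromosomes 1 to 19. In 17 groups (6.32%) no peak was under it. Of the 100 highest peaks on these chromosomes, 6 lay in a group, near the 7.98% of all peaks there.

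**Figure D1:**
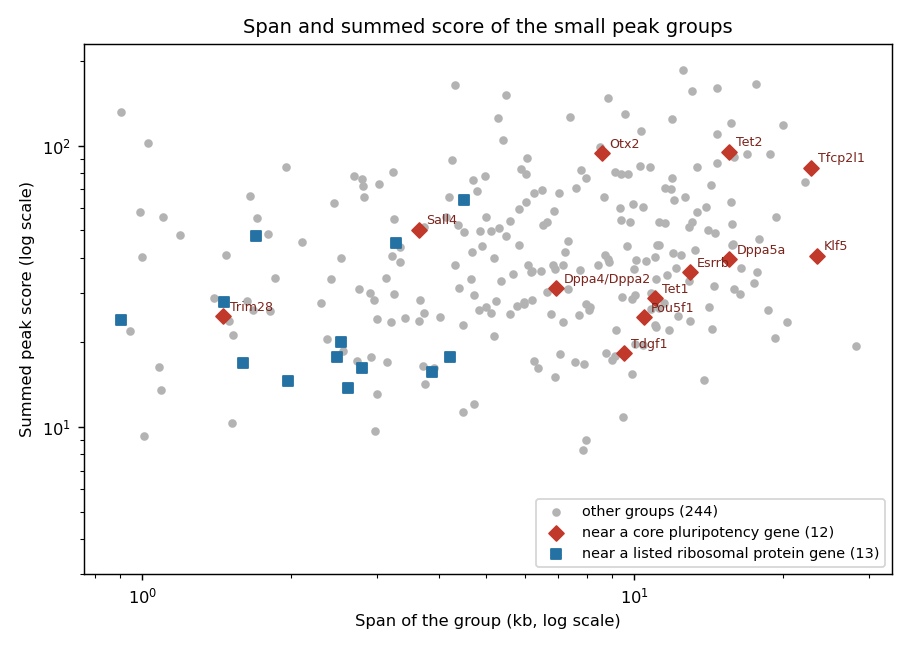
Summed peak score against span, both on log scales, for the 269 small peak groups. Diamonds mark the 12 groups within 10 kb of a core pluripotency gene and squares the 13 within 10 kb of a listed ribosomal protein gene (41 of 72 such genes were listed). The squares sit at spans up to 4.50 kb, while 10 of the pluripotency groups have spans over 6 kb.

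Short gaps between neighbouring peaks were the most common. Of 652 gaps, 292 (44.8%) were under 1 kb and 163 (25%) over 5 kb, with a median of 1479 bp. A gap under 1 kb can lie inside 1 enriched stretch that the peak caller split. After peaks at gaps up to 1 kb were joined, 47 of the 269 groups were left with 1 stretch, 105 with 2 and 117 with 3 or more (43.5%, exact 95% interval by Clopper-Pearson 37.5 to 49.6%, counting error only). In 87 groups every gap was over 1 kb.

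**Figure D2:**
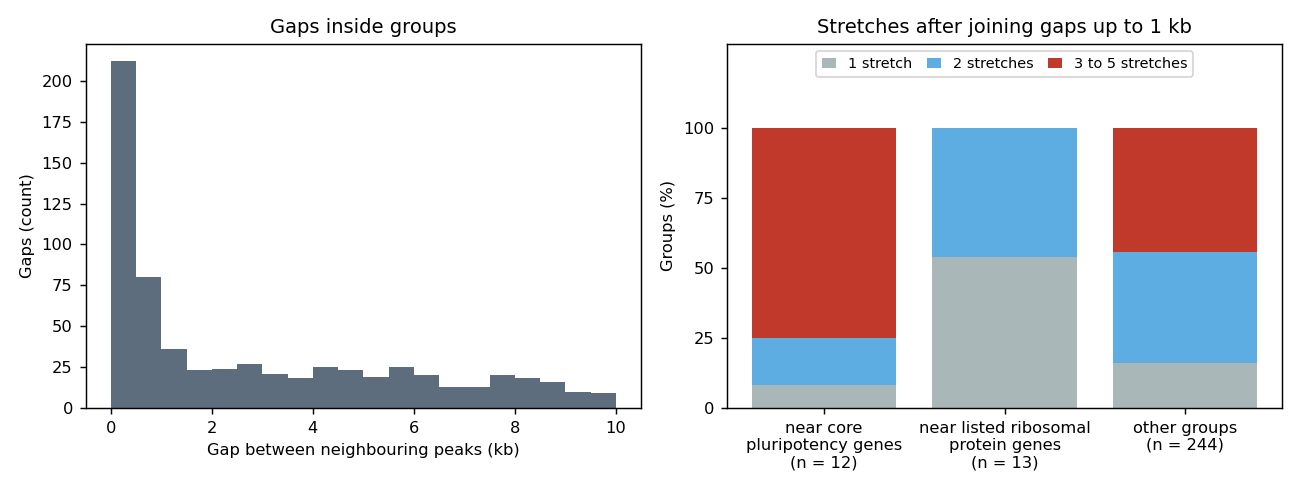
Left, gaps between neighbouring peaks of the 269 groups in kb (652 gaps). Right, share of groups left with 1, 2 or 3 to 5 stretches after gaps up to 1 kb were joined. Of the groups near core pluripotency genes 9 of 12 kept 3 or more stretches, of those near listed ribosomal protein genes 0 of 13, and of the others, which include 7 near ribosomal protein genes outside the list, 108 of 244.

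The rule's limits cut through a continuous range. Just inside lay a group of 4 peaks with a gap of 9915 bp, 39.96 kb from Foxf2, with a summed score of 53.7. Another such group, of 4 peaks in Kdm5b, had a gap of 9776 bp and a summed score of 55.7. Just outside lay 3 peaks on chromosome 3, nearest to Fcgr1, divided by a gap of 10124 bp, with a summed score of 53.5. Chains of 2 peaks numbered 1020 and chains of 6 peaks 25.

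About as many groups lay on genes as off them. Of the 269 groups, 135 overlapped a protein-coding gene (50.2%, exact interval 44.1 to 56.3%), 81 of them wholly inside it. A further 42 reached over 1 end of a gene and 12 over a whole gene. Of the 134 outside, 34 lay within 10 kb of a gene, 63 at 10 to 100 kb and 37 farther off, with a median distance of 30.0 kb. No gene of any type was annotated under 93 groups, and 27 of the 134 overlapped a lncRNA gene. Exons and introns were not annotated here.

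Peaks of groups lay within 1 kb of a protein-coding gene end in 101 of 921 cases (10.97%, exact interval 9.02 to 13.2%). The share was 3.78% of single peaks, 5.74% of peaks in pairs and 20.2% of peaks in chains of 6 or more, and 5.09% of all other peaks together. Inside a gene lay 40.7% of peaks of groups, against 41.9% of the other peaks. Their median score was 8.12, against 10.7 for single peaks, 10.0 in pairs and 6.34 in chains of 6 or more. Peaks of 1 group share a place, so these shares are not over independent positions, and the differences were not tested.

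**Figure D3:**
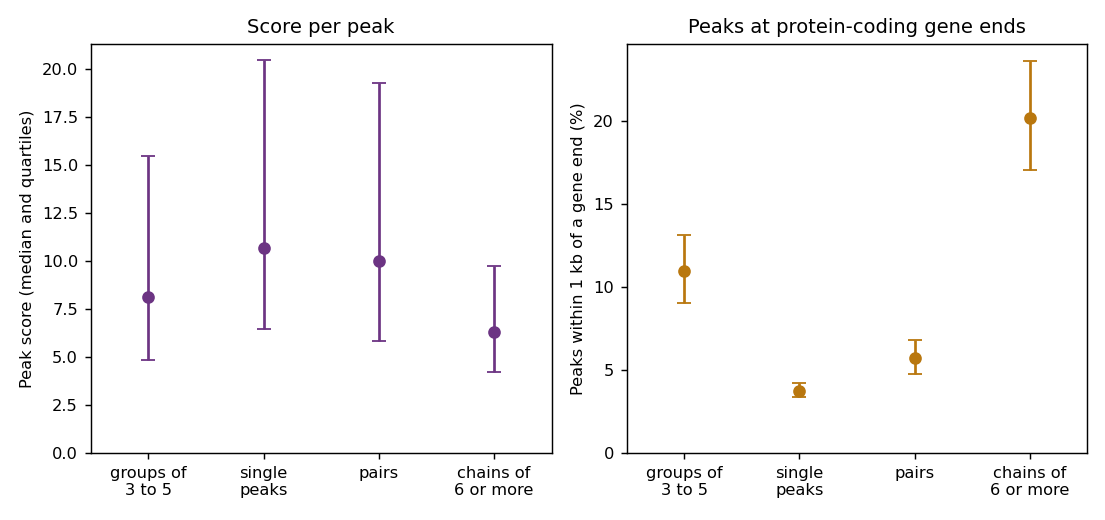
Left, score per peak (median, bars from lower to upper quartile) and right, share of peaks within 1 kb of a protein-coding gene end (%, bars are exact 95% intervals), for peaks in groups of 3 to 5, single peaks, pairs and chains of 6 or more. The median score is 8.12 in groups of 3 to 5 and 10.7 in single peaks, and the share at gene ends 10.97% and 3.78%.

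The 52 groups with a peak within 1 kb of a gene end had a median span of 4.27 kb and a median summed score of 24.1. The other 217 had medians of 7.56 kb and 41.0. After gaps up to 1 kb were joined, 15 of the 52 (28.8%) and 102 of the 217 (47.0%) kept 3 or more stretches. The groups at gene ends were thus the shorter and weaker ones by these medians.

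Genes of the pluripotency network were often next to a group. Of 39 core pluripotency genes on chromosomes 1 to 19, 13 had a group within 10 kb (33.3%, exact interval 19.1 to 50.2%), against 246 of 20665 protein-coding genes (1.19%). They were Pou5f1, Esrrb, Tfcp2l1, Klf5, Sall4, Otx2, Tet1, Tet2, Dppa2, Dppa4, Dppa5a, Tdgf1 and Trim28, and Dppa2 and Dppa4 shared 1 group. In 11 of the 13 the group overlapped the gene, against 151 of all genes (0.731%). Within 5 kb there were 12 (1.03% of all genes) and within 50 kb 15 (2.55%). When chains were built with gaps up to 5 kb it was 5 of 39 (0.958% of all genes), and when peaks under the median score were dropped 2 of 39 (0.145%). The median length was 10558 bp for the listed genes and 17491 bp for all.

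**Figure D4:**
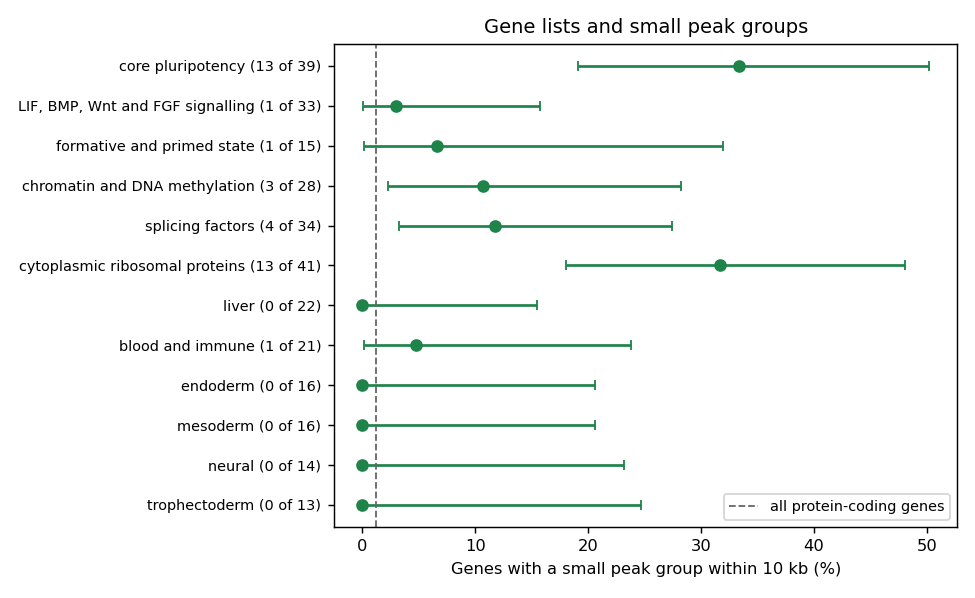
Share of the members of each gene list with a small peak group within 10 kb (%, points) with exact 95% intervals (bars); the dashed line is the share of all protein-coding genes, 1.19%. Core pluripotency genes (33.3%) and the listed ribosomal protein genes (31.7%) have the highest shares, and 5 lists of other cell types are at 0. Some lists share members, such as Otx2.

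Among the transcription factor genes, Pou5f1, which encodes Oct4, lies on chromosome 17 and had a group of 4 peaks (35503957 to 35514408). Their scores were 11.5, 6.11, 2.00 and 4.91, the first 2 lying 1.80 and 0.837 kb before the gene, the third inside it and the last 3.46 kb past it. Both starts lay inside the span and neither lay under a peak. The strongest peak was thus the farthest one before the gene.

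Tfcp2l1 encodes a factor that holds ES cells in the naive state. On chromosome 1, its group of 4 peaks (118625448 to 118648279) began with a peak of 58.6 that ended 2.19 kb before the gene. The others, 5.95, 14.9 and 20.2 kb after the start, had 4.13, 7.65 and 13.2. At 22.8 kb it was among the 5 longest groups, and 1 peak held 70.1% of its summed score of 83.5.

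At Esrrb, the gene of an orphan nuclear receptor of the naive network (chromosome 12), 3 peaks inside the gene (86466219 to 86479164) had scores of 15.1, 18.4 and 2.07. They lay 44.7 to 57.4 kb after the nearest annotated start. A chain of 6 or more and a pair of peaks were also within 10 kb of this gene.

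Klf5, a Krüppel-like factor gene (chromosome 14), had the second longest group of all, with 4 peaks over 23.5 kb (99301473 to 99324954). The 2 peaks in the gene had 2.92 and 2.30 and the next, 2.95 kb above it, 1.96. The last, 11.2 kb above the gene, had 33.5, which is 82.3% of the summed score.

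Sall4, a zinc finger factor gene of ES cells (chromosome 2), had 3 peaks of similar score inside the gene, 12.8, 14.6 and 22.8, within 3.64 kb (168761164 to 168764803). It was the only core gene with a group both under the 5 kb limit and after weaker peaks were dropped.

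Otx2 encodes a homeobox factor of the formative state that follows the naive one. Its 3 peaks on chromosome 14 (48654624 to 48663228) had a summed score of 93.9. The strongest (78.7) had its midpoint at -0.35 kb from the most downstream of the annotated starts and reached into the window printed above. The other 2, below the gene, had 10.7 and 4.43.

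The genes of 2 enzymes that oxidise methylated cytosine came next. Tet2 (chromosome 3) had 5 peaks inside the gene (133518792 to 133534330) with scores of 5.15, 56.5, 22.6, 4.58 and 6.35, from 25.5 to 10.2 kb after its start. Their sum of 95.2 was the highest among the core genes. Tet1 (chromosome 10) had 3 peaks (62884719 to 62895737), 1 inside the gene (4.63) and 2 upstream of it, at 5.56 kb (21.6) and 8.10 kb (2.53) from the gene.

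The Dppa genes encode small proteins of early embryonic and germ cells. Dppa2 and Dppa4, neighbours on chromosome 16, shared 3 peaks (48303608 to 48310535) with scores of 19.1, 5.42 and 6.63. The first lay between the genes, 9.32 kb above Dppa4 and 6.41 kb below Dppa2, and the last inside Dppa2. Dppa5a (chromosome 9) is a short gene with 3 peaks below it and 2 above it (78359689 to 78375270), with scores of 7.81, 3.68, 14.2, 3.92 and 9.83 and none inside.

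Tdgf1, which encodes a Nodal co-receptor (chromosome 9), had a peak of 10.46 at 0.192 kb below the gene, past its downstream end. Another 2, upstream of it by 1.61 and 1.945 kb, had 2.29 and 5.58, and the group spanned 9.51 kb (110938765 to 110948275). Trim28 encodes a corepressor that silences retroelements. Its group was of another shape, with 4 peaks of 3.18, 9.91, 7.22 and 4.43 within 1.46 kb of chromosome 7 (13031411 to 13032866). It lay 0.379 kb above Trim28 and overlapped the neighbour Chmp2a, and became 1 stretch when gaps up to 1 kb were joined.

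**Figure D5:**
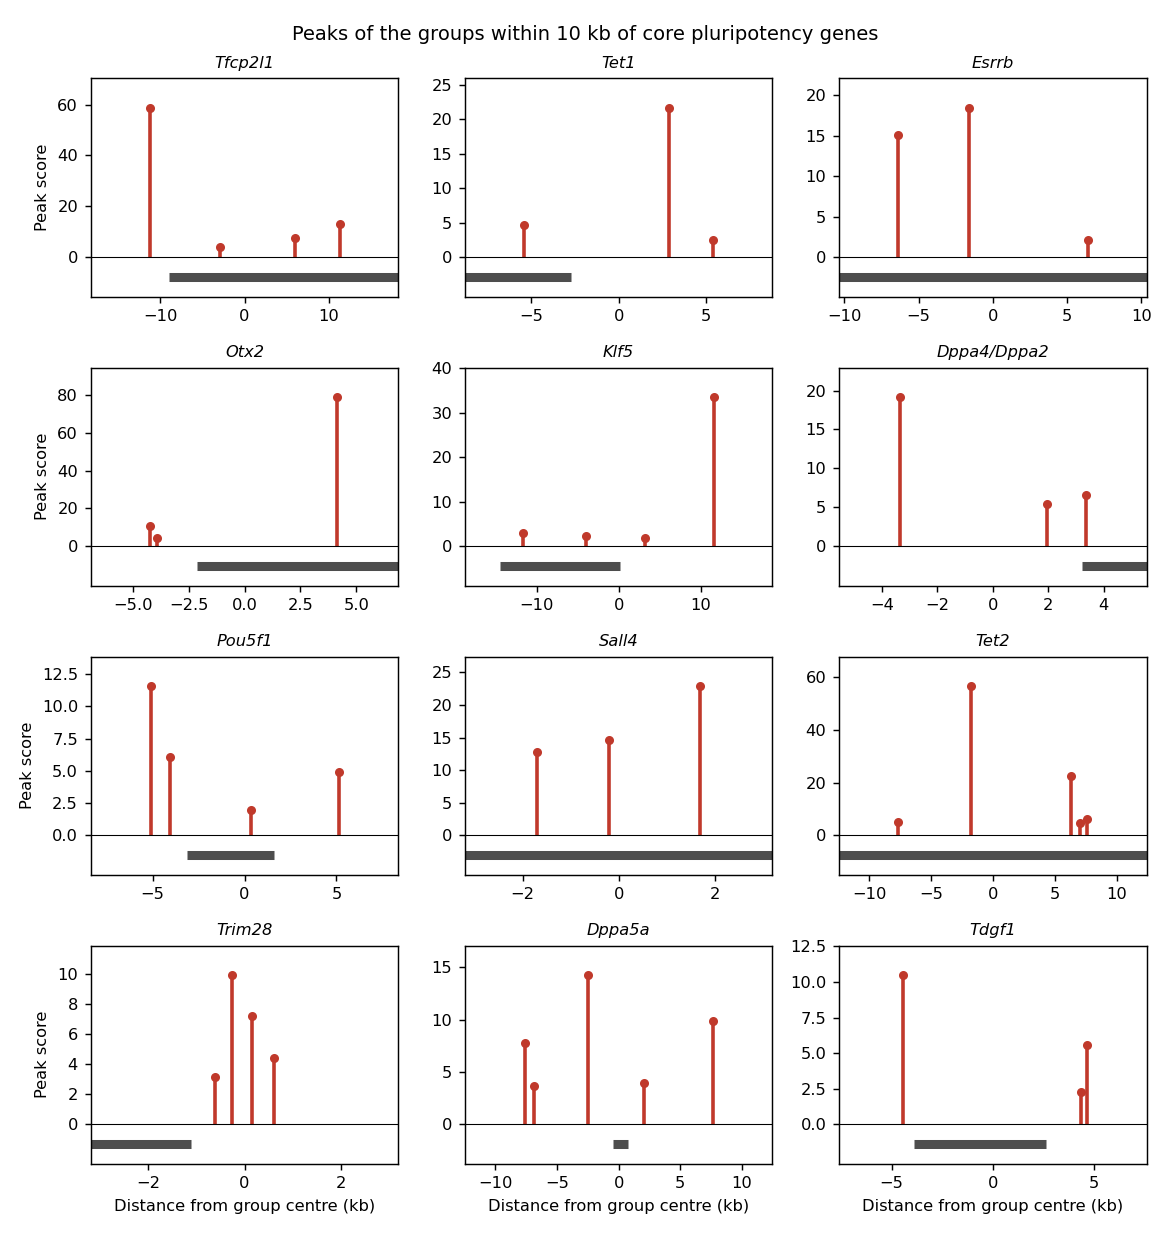
Peak score against distance from the centre of the group in kb for the 12 groups within 10 kb of core pluripotency genes; grey bars show the named gene as far as it falls in the panel (in the Dppa4/Dppa2 panel, Dppa2). In the Tfcp2l1, Otx2 and Klf5 panels 1 outer peak is far above the others, while the 3 peaks at Sall4 are between 12.8 and 22.8.

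Farther off, groups had a core gene as their nearest protein-coding gene. With these, 16 of the 39 core genes were the nearest gene of a group, at any distance (41.0%), against 279 of all genes (1.35%). The 5 beyond 10 kb were chosen after their values were seen. Sox2 is the partner of Oct4. Its group on chromosome 3 lay 104 kb above the gene (34756809 to 34761464), with scores of 7.74, 17.6 and 8.13. Enhancer elements known as the Sox2 control region are known far downstream of this gene. At Prdm14, a gene of the naive state, 3 peaks with scores of 10.47, 5.36 and 3.71 ended 18.2 kb below the gene. At Sall1 the scores were 27.1, 2.15 and 11.7, the last 11.3 kb below the gene. The groups of Myc (summed score 26.0, 133 kb above) and Nr5a2 (76.6, 418 kb above) were the farthest, and a nearest gene need not be the gene a site acts on.

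Most core genes without a group had other peaks nearby. A peak of any kind lay within 10 kb of 34 of the 39, against 22.5% of all genes. Nanog, Sox2, Klf4, Rif1, Utf1 and Jarid2 had a pair and no group there (3.25% of all genes had a pair). Klf2, Tbx3, Dppa3, Fgf4, Mycn, Myc, Nr5a2, Lefty2, Zscan10, Fbxo15, L1td1, Lin28a, Rest and Gdf3 had single peaks alone (19.3% of all genes had a single peak). At Zfp42 the peaks formed a chain of 6 or more, as near 0.503% of all genes. Prdm14, Lefty1, Stat3, Tcl1 and Sall1 had no peak within 10 kb.

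Among genes of the LIF, BMP, Wnt and FGF pathways, Lifr, the gene of the LIF receptor, was the only one of 33 with a group within 10 kb (3.03%, exact interval 0.0767 to 15.8%), against 1.19% of all genes. Its 3 peaks inside the gene on chromosome 15 (7115628 to 7118324) had scores of 36.4, 37.5 and 4.31. Of the 33 genes, 21 had a peak of some kind within 10 kb, against 22.5% of all genes. The median gene length was 39369 bp in this list and 17491 bp over all genes, and the part of gene length was not tested. Spry2, an inhibitor of FGF signalling, lay between 2 groups of 4 peaks, 30.6 kb below it (summed score 61.9) and 23.5 kb above it (29.9). In the list of the formative and primed states, Otx2, which is in the core list too, was the only one of 15 with a group within 10 kb (6.67%). Of 28 genes of chromatin and DNA methylation there were 3 (10.7%), Kdm5b, which encodes an H3K4 demethylase (55.7), beside Tet1 and Tet2. Both Tet genes are in the core list too. Median gene length was 8074 bp in the formative and primed list and 65433 bp in the chromatin list.

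Most groups at genes of cytoplasmic ribosomal proteins were short. The list used held 41 of the 72 such genes on chromosomes 1 to 19, and 13 of the 41 had a group within 10 kb (31.7%, exact interval 18.1 to 48.1%), against 1.19% of all genes. These 13 groups spanned 0.903 to 4.50 kb with a median of 2.53 kb, against 10.7 kb for the 12 groups near core pluripotency genes. Their median summed score was 17.8, against 37.5. The highest were at Rps12 (63.9), Rplp1 (47.9), Rps23 (44.9) and Rps19 (27.9). With gaps up to 1 kb joined, none of the 13 kept 3 stretches, and 7 became 1 stretch. All 72 genes, found by symbol, were counted after these values were seen. Of them 20 had a group (27.8%, exact interval 17.9 to 39.6%), with spans of 0.903 to 9.90 kb and a median of 2.70 kb. The 7 of these 20 genes that were outside the list were Rpl31, Rpl37a, Rpl10a, Rps28, Rpl21, Rpl27a and Rps15a. The group inside Rps15a had the widest span of these, with 3 peaks over 9.90 kb that stayed 3 stretches (summed score 15.4). At Rps12, 4 peaks over 4.50 kb joined into 1 stretch that also holds the small nucleolar RNA genes Snora33 and Snord100.

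The counts of the 2 lists, set side by side after their values were seen, changed with the rule. With peaks merged at 1 kb before chaining, 11 of 39 core pluripotency genes and 3 of 41 listed ribosomal protein genes had a group within 10 kb, against 0.677% of all genes. With a largest gap of 5 kb there were 5 of 39 core genes and 14 of 41 listed ribosomal protein genes, against 0.958% of all genes. The 3 after merging, Rpl3, Rps20 and Rpsa, were none of the 13, and the 11 core genes included Zfp42, which had no group before.

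Splicing factor genes had a group in 4 of 34 cases (11.8%, exact interval 3.30 to 27.5%), against 1.19% of all genes. They were Hnrnpa2b1 (summed score 23.6), Hnrnpa1 (18.2), Hnrnph1 (16.2) and Tra2b (9.69). In the lists of other cell types, 0 of 22 liver, 0 of 16 endoderm, 0 of 16 mesoderm, 0 of 14 neural and 0 of 13 trophectoderm genes had one. The exact intervals of these lists reached up to 15.4% for liver genes and 24.7% for trophectoderm genes, so the 1.19% of all genes lies within them. The only such gene among 21 of blood and immune cells was Cd79a, 5.28 kb from the group at Rps19.

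The strongest groups lay elsewhere. The highest summed score, 186, belonged to 5 peaks on chromosome 16 (9080341 to 9092892), 221 kb from the nearest gene, 1810013L24Rik. It was followed by 5 peaks 17.0 kb from Zfp640 on chromosome 13 (165), 4 peaks 80.5 kb from the cation channel gene Trpc6 (164), and 4 peaks inside the adenylate kinase gene Ak9 (161). Groups inside Eif4e2, the gene of a cap-binding protein (157), and inside the salt-inducible kinase gene Sik2 (151) came next. Cflar, the gene of an inhibitor of caspase activation, had 5 peaks 1.75 kb away (147.6). At Rbpj, the gene of the nuclear effector of Notch, 3 peaks lay 88.0 kb away (132) within 0.903 kb, the shortest span of all together with that of the group at Rnf225. Groups at Zfp993 (130), Gm46427 (126), the kinase gene Stk17b (126) and Nufip2 (124) completed the 12 highest.

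The longest group, 28.2 kb at Olfr986 and Zfp202, had a summed score of 19.4, below the lower quartile. Dcbld1 (22.2 kb) and A530032D15Rik (20.4 kb) completed the 5 longest with Klf5 and Tfcp2l1. The shortest, beside those at Rbpj and Rnf225, were 64.1 kb from Cibar1, 3.69 kb from Rfx4 and 21.2 kb from Zfp11, all under 1 kb. Summed scores ran from 19.4 to 83.5 (Tfcp2l1) in the 5 longest groups and from 21.9 (Cibar1) to 132 (Rbpj) in the 5 shortest. High and low scores thus occurred at both ends of the range of spans.

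The share of peaks in groups differed between chromosomes. Groups held 10.8% of the peaks of chromosome 13 and 10.1% of chromosome 14. The lowest shares were 3.68% on chromosome 8 (7 groups) and 4.12% on chromosome 12 (6 groups). These differences were not tested. On chromosome 13, 7 of the 23 groups lay between 65 and 67 Mb, together with 6 chains of 6 or more, in a stretch with 126 of the 809 peaks. The summed scores of the 7 ran from 19.8 to 165, and 2 of 24 protein-coding genes there have a zinc finger (Zfp) symbol. On chromosome 4, 6 of the 20 groups lay in 1 stretch near Zfp993, where 16 of 27 protein-coding genes have such a symbol. The summed scores there ran from 49.6 to 130. The counts of zinc finger genes go by symbol alone, so such genes with other names are left out. Both stretches were picked after their values were seen, and the part of reads shared between gene copies was not tested. Without them 256 groups were left, and 13 core genes had one.

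Platr lncRNA genes were looked at after their values were seen. Of 16 such genes, 3 were overlapped by a group, against 38 of 12408 lncRNA genes (0.306%). At Platr10 (chromosome 3) 5 peaks had scores of 9.23, 29.7, 5.46, 39.8 and 4.75. Those at Platr22 were 7.88, 9.51 and 10.9, the last over its start. At Platr9 they were 5.82, 7.61 and 4.96, the last inside the promoter window but just upstream of the start, and the others inside the neighbour Cga.

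A group in Wdr82 on chromosome 9 (106171898 to 106179696) held the hairpin gene of let-7g, a microRNA that is kept from maturing in ES cells by Lin28. Its peaks had scores of 53.2, 9.38 and 19.5, and the hairpin (106178840 to 106178927) lay between the last 2. This microRNA is shown because its gene was 1 of 3 microRNA genes within the spans of groups. The share of all microRNA genes was not computed. Its seed, bases 2 to 8, is in capitals (RefSeq, GRCm38.p6).
mmu-let-7g-5p (chr9:106178846-106178867, plus strand): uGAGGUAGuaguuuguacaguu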

How the data were processed

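TOBF1 ChIP-Seq of R1/E mouse ES cells was read from 1 deposited peak list. The submitters' processing notes name cutadapt, Bowtie2, MACS2, bedtools and the build mm10. Their versions and settings, the depth and whether the input served as control were not given in the sources at hand. The −log10 scale (q-value) of the deposited score was taken from its range, at least 1.304. A score depends on depth and local background.

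Peaks were chained within chromosomes and counted against the genes of a RefSeq table (GRCm38.p6), with distances from the span of a group to the gene. Core and other lists (12 lists, 304 entries, 292 on chromosomes 1 to 19) and the groups were chosen with earlier results of these data known. Genes were named by rule: every core gene with a group within 10 kb, the 12 groups of highest summed score, the 5 longest and 5 shortest, and up to 4 genes of each other list. Others are marked. Exact 95% intervals (Clopper-Pearson) reflect counting error alone. No test was made, because the members were chosen from this list. Alternatives were other gaps, chain sizes, windows, a score minimum and merged peaks; the full set of ribosomal protein genes was added after seeing the data. Chaining was tested on simulated data. Scripts ran in Python 3.11.15 with pandas 2.3.3, SciPy 1.17.1, NumPy 2.4.6 and, for plots, matplotlib 3.10.9.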

Additional observations from a re-analysis of the deposited data

Results flagged for a closer look

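Chains of 3 to 5 peaks also occurred outside chromosomes 1 to 19, in data that no comparison used. On chromosome Y there were 4 such chains with 13 of its 19 peaks and summed scores from 21.2 to 94.5 (median 27.3). There were 2 on chromosome X and 2 on scaffolds.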

How the results depend on the processing

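No paired analysis was possible because the series has 1 ChIP library and no replicates. Of 88 recomputed values, 58 stayed within the interval of the reported value (counts within 1.5 times of it) and 30 did not. With a largest gap of 5 kb, groups held 5.70% of peaks, with a median span of 3.89 kb and a median summed score of 33.8; 26.0% had a peak at a gene end, and 5 core genes had a group. With the next larger gap tried they held 9.33% of peaks and spanned a median of 8.996 kb. With 20 kb there were 415 groups with 12.4% of peaks, a median span of 14.3 kb and a median summed score of 42.8.

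Without peaks under the median score, 49 groups were left with 2.73% of those peaks and a median summed score of 71.8. Of these 38.8% overlapped a gene and 12.2% had a peak at a gene end, and 2 core genes and 30 of all genes had a group. With peaks merged at 1 kb first there were 152 groups with 4.83% of the merged peaks, a median span of 12.1 kb and a median summed score of 44.5; 61.8% overlapped a gene, and 140 of all genes had a group. Chains of 3 to 4 peaks held 6.76% of peaks and chains of 3 to 6 held 9.28%. Of all protein-coding genes, 151 were overlapped by a group and 526 had one within 50 kb. Within 0.5 kb of a gene end 13.8% of groups had a peak, and within 5 kb 37.5%. The cause of these shifts was not tested. Chaining by midpoints, with chromosome X, or without the stretches on chromosomes 13 and 4 (the last 2 chosen after seeing the data) left every value within its interval or 1.5 times. The number of core genes with a group was 11 to 15 under every alternative other than a largest gap of 5 kb and the score minimum. The genes themselves changed. With a largest gap of 20 kb there were again 13, but Jarid2 and Myc stood in place of Esrrb and Klf5. With peaks merged at 1 kb first, Otx2, Tdgf1 and Trim28 had no group and Zfp42 had one. Read depth is unknown, so how much weak peaks depend on depth cannot be given.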

Other observations

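Groups also lay in the loci of antigen receptors, which are not rearranged in ES cells. There were 5 of them, 2 in Igh (summed scores 24.7 and 13.5), 2 in Tcra (82.9 and 87.0) and 1 in Igk (48.2). These loci are long, and the number of groups over stretches of like length was not computed, so the count shows no excess. Within 10 kb of 1 gene, 2 groups were found at Tns3, which encodes a focal adhesion protein (7 peaks, together 94.1), at the receptor phosphatase gene Ptprg (8 peaks, 73.9) and at Zfp993 (10 peaks, 193), and no gene had 3. In the histone clusters, 5 groups had peaks over promoter windows of 9 histone genes, the highest score being 10.47 at the window shared by H2ac23 and H2bc23. A total of 5 tRNA genes lay within the spans of 2 groups of chromosome 13, and 5 snRNA genes within those of 4 groups. A span takes in the gaps between peaks. Of the tRNA genes only n-TVcac2 met a peak, and the snRNA genes Rnu1a1, Gm22068 and Gm26479 lay in gaps. For histone, tRNA and snRNA genes the share of all such genes was not computed, so these counts show no excess. These sets were chosen after their values were seen, and the part of reads shared between their copies was not tested.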
